A study of Mus musculus with 10 samples.

Results

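The claudins, keratins, connexins and desmosome genes are the structural genes of epithelial cell contacts, and 91 of the 18193 mouse genes measured here belong to them. They were taken by symbol from the array annotation: claudins (Cldn), occludin (Ocln), the tight junction proteins (Tjp), keratins (Krt), connexins (Gja, Gjb, Gjc and Gjd), plakophilins (Pkp), desmogleins (Dsg), desmocollins (Dsc) and desmoplakin (Dsp). The 91 genes lie on 138 probe sets, and each gene was read from its brightest one. They comprise 23 tight junction genes (20 claudins, Ocln, Tjp1 and Tjp3), 44 keratins, 13 connexins and 11 desmosome genes. The study put the pluripotency factor Oct4 alone into adult mouse neural stem cells (NSC) and profiled RNA on 10 Affymetrix arrays, which its labels place in 3 groups. The 3 arrays labelled iPS-derived NSC are described as neural stem cells differentiated from the iPS cells made with this 1 factor. The 3 arrays labelled iPS are described as Oct4-GFP-positive colonies, picked and expanded on irradiated embryonic fibroblasts in stem cell medium with LIF, after infection of adult brain NSC with a pMX retrovirus carrying mouse Oct4 cDNA. The 4 arrays called brain NSC here are of the neural stem cells from adult brain themselves, with no infection described. All 3 groups derive from mice with the Oct4-eGFP (OG2) transgene and the Rosa26 neo/lacZ allele that had been bred to ICR females. The labels do not say whether samples of a group came from separate animals, clones or cultures, so the p-values measure the spread between these samples, which may be technical.

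Tight junctions seal the space between neighbouring epithelial cells, and claudins and occludin are their membrane strands while Tjp proteins anchor them inside the cell. Desmosomes join cells through desmogleins and desmocollins, which plakophilins and desmoplakin tie to keratin filaments, and keratins assemble as pairs of a type I and a type II chain. Connexins form gap junction channels, through which neighbouring cells share small molecules. Pluripotent stem cells are epithelial in character and carry such contacts. Neural stem cells build their filaments from vimentin and nestin, and gap junctions couple them to each other.

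The markers of the cell states went against 2 of the 3 labels. Pou5f1, the gene of Oct4, read 13.41, 13.00 and 13.45 on the log2 scale on the arrays labelled iPS-derived NSC, against 4.49, 4.78 and 4.72 on those labelled iPS and 4.50 to 4.62 on those labelled brain NSC. Fabp7, a neural stem cell gene, read 4.23 to 4.65, 14.15 to 14.19 and 14.31 to 14.52 in the same 3 groups. The labels are kept as deposited, and every direction given here for the arrays labelled iPS and iPS-derived NSC rests on labels that these markers contradict. Values are log2 intensities after RMA (robust multi-array averaging), so a difference of 1 is a 2-fold change. The arrays had lower quartiles of 4.22 to 4.41 and medians of 5.65 to 5.72. Detection calls were not used here, so a gene near or below these levels is not shown to be above background, and its difference is one of deposited values, not a measured fold of RNA. Over all genes, arrays of 1 group correlated at r = 0.990 to 0.998, lowest for brain NSC replicate 4 against the other brain NSC arrays (0.990 to 0.992). Differences were tested with limma over all genes, and a gene was called at a Benjamini-Hochberg adjusted p below 0.05 together with a change of at least 2-fold.

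On the arrays labelled iPS-derived NSC, 12 of the 91 genes rose against those labelled iPS and 1 fell. The 12 were Dsg2, Pkp2, Krt18, Dsp, Cldn6, Krt8, Cldn4, Gjc1, Gjb5, Cldn7, Pkp3 and Ocln, and the gene that fell was Krt10. Of all genes tested, 10.8% rose and 14.4% fell in this comparison, so the share of these genes that rose (13.2%) was near the background, and the share that fell (1.10%) was below it. Against brain NSC, the arrays labelled iPS-derived NSC had 12 genes higher and 0 lower by limma, beside 11.3% higher and 14.0% lower over all genes. At an unadjusted p below 0.05, 46 of the 91 genes were higher over brain NSC and 6 lower, beside 39.4% and 26.6% of all genes. The same limit gave 44 higher and 3 lower over labelled iPS, beside 37.2% and 27.6% of all genes. In such bulk samples, fewer cells of a type and less RNA per cell cannot be told apart. Both comparisons use the same arrays labelled iPS-derived NSC, so they are not independent of each other. Between the arrays labelled iPS and brain NSC, 0 of the 91 genes rose and 1, Pkp2, fell, where 0.951% and 0.89% of all genes rose and fell. At an unadjusted p below 0.05, limma had 2 of the 91 higher and 10 lower in that comparison, beside 17.7% and 14.8% of all genes.

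**Figure D1:**
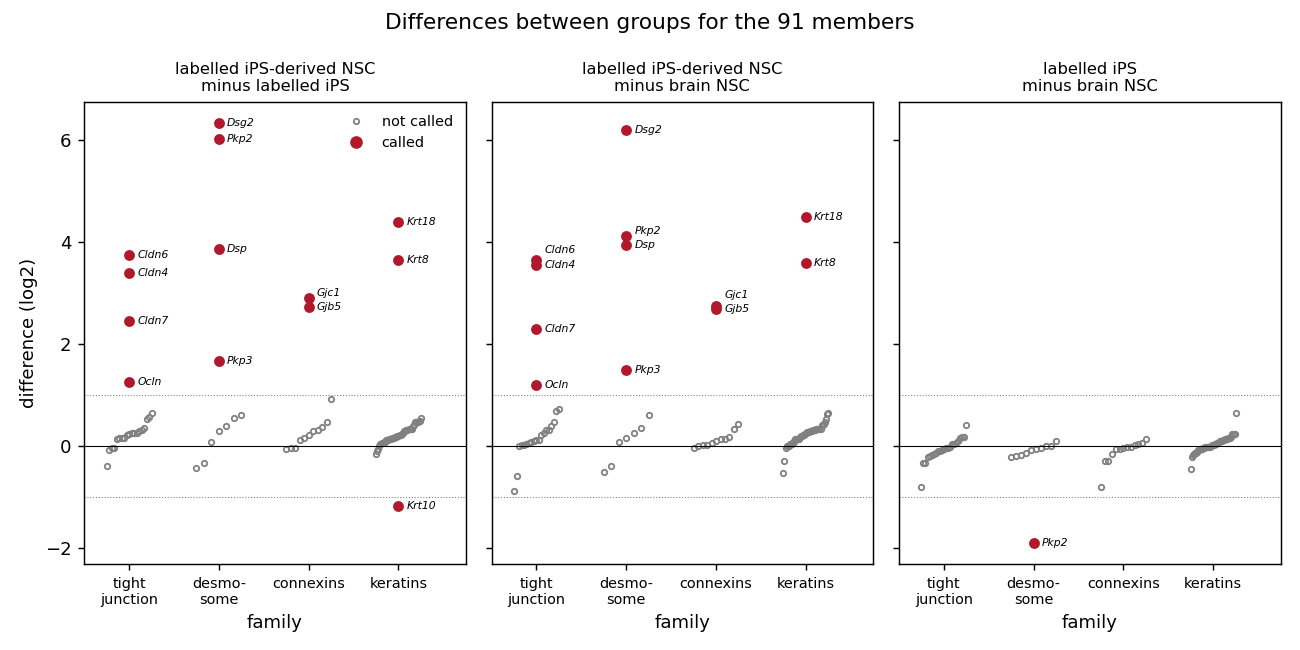
Log2 difference of each of the 91 genes by family, for labelled iPS-derived NSC over labelled iPS, labelled iPS-derived NSC over brain NSC, and labelled iPS over brain NSC, with filled points for called genes and dotted lines at a 2-fold change. Dsg2 and Pkp2 lie highest in the left panel, at 6.35 and 6.03 over labelled iPS, most uncalled genes lie near 0, and the 2 called points below 0 are Krt10 (-1.18, left) and Pkp2 (-1.92, right).

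By family, desmosome genes had 4 of 11 higher on the arrays labelled iPS-derived NSC than on those labelled iPS, tight junction genes had 4 of 23, connexins had 2 of 13 and keratins had 2 of 44, beside 10.8% of all genes. The same counts held against brain NSC. The differences between family shares were not tested. The median difference of labelled iPS-derived NSC over labelled iPS was 0.55 for desmosome genes, 0.29 for connexins, 0.25 for tight junction genes and 0.20 for keratins, beside 0.12 for all genes. Of the 91 genes, 57 lay below the median of all array values (5.68) in every group, among them 29 of the 44 keratins but 5 of the 11 desmosome genes. Dim genes leaned the same way over the whole array, where 81.0% of the 6705 genes with a mean under 5.68 had a difference above 0, with a median of 0.19. Among the dim members the median was 0.23, and 56 of 65 were above 0.

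**Figure D2:**
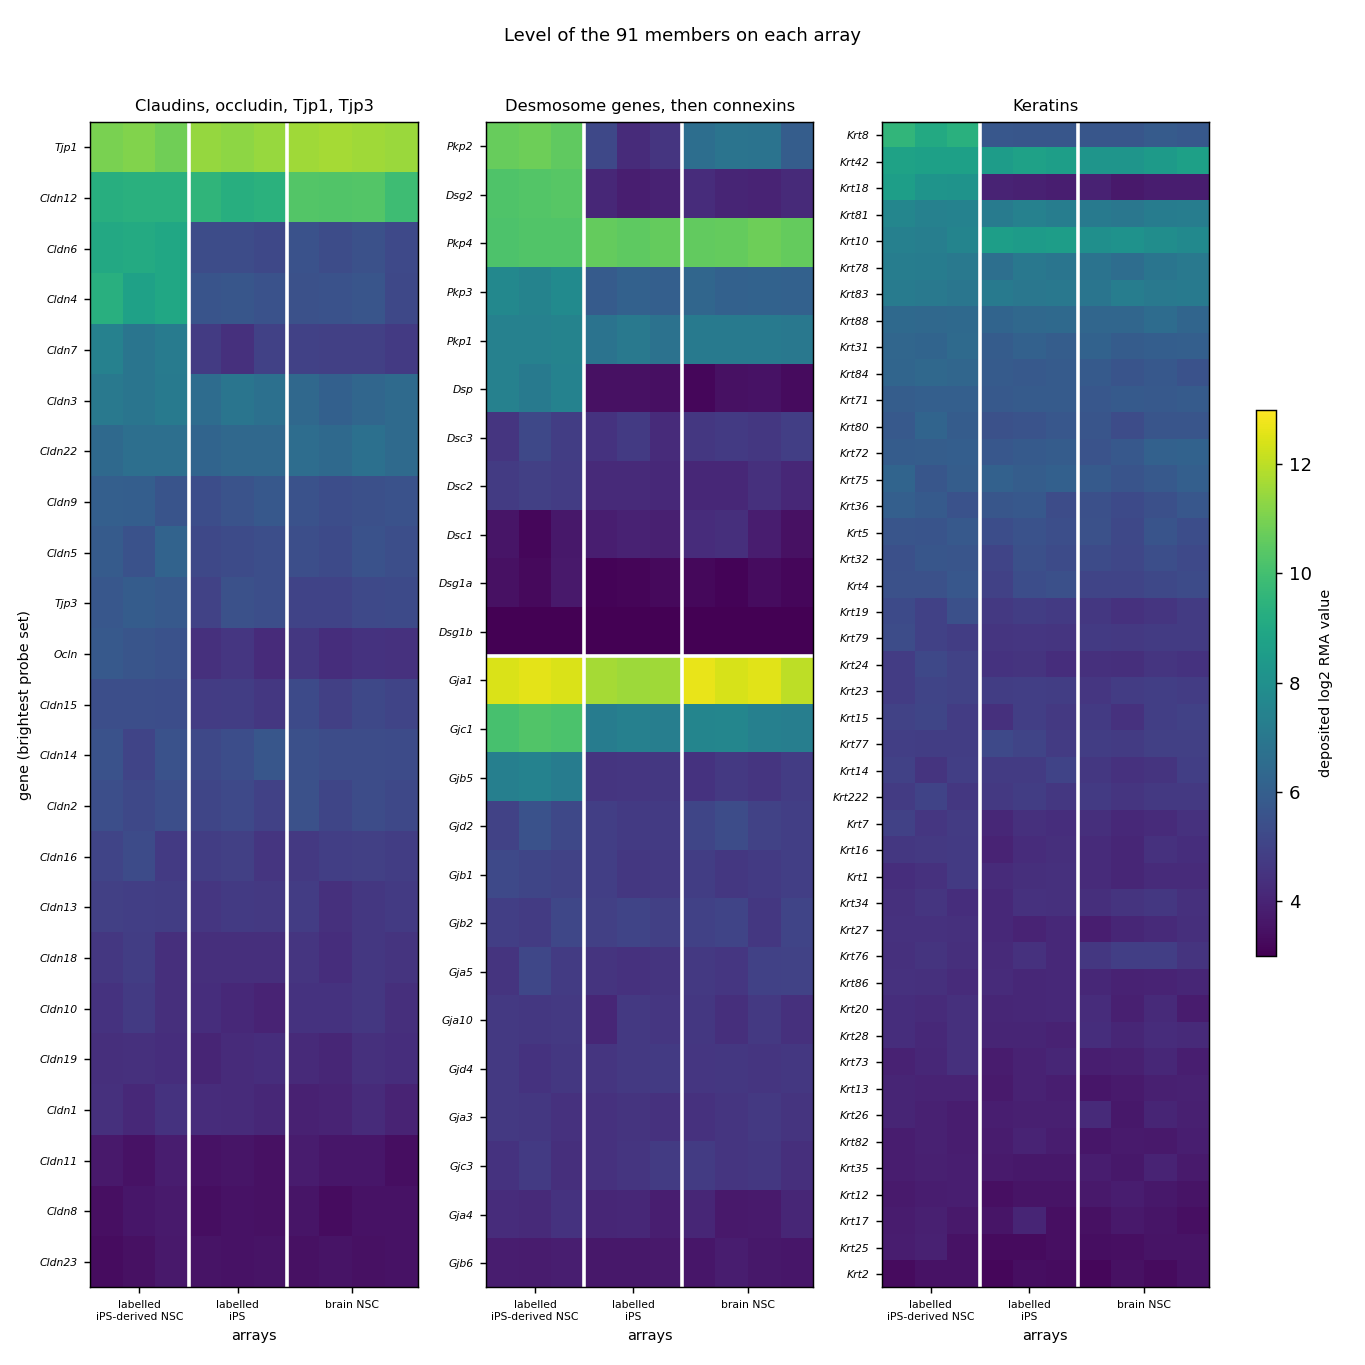
Log2 intensity of the 91 genes (running down the page, by family) on each of the 10 arrays (columns, in the order labelled iPS-derived NSC, labelled iPS, brain NSC). The 12 genes that rose change colour at the border of the labelled iPS-derived NSC arrays, and most keratins are dim on every array.

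Among the tight junction genes, Cldn6, Cldn4, Cldn7 and Ocln rose on the arrays labelled iPS-derived NSC. Cldn6, a claudin of embryonic epithelia and pluripotent cells, read 9.02, 9.12 and 8.94 on those arrays, 5.33, 5.32 and 5.16 on labelled iPS arrays, and 5.51, 5.31, 5.47 and 5.22 on brain NSC arrays. All 3 of the first lay above every other array, and the other groups overlapped near the array median. The difference was 3.76 ± 0.10 (SE) over labelled iPS (limma adjusted p = 1.49e-12) and 3.65 ± 0.10 over brain NSC (adjusted p = 8.40e-13).

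Cldn4, a sealing claudin of simple epithelia and a receptor of a Clostridium toxin, read 9.33, 8.72 and 8.95 on labelled iPS-derived NSC arrays, against 5.59, 5.69 and 5.53 on labelled iPS arrays and 5.46, 5.51, 5.63 and 5.16 on brain NSC arrays. Again the labelled iPS-derived NSC arrays lay above all others, and the difference was 3.40 ± 0.15 over labelled iPS (adjusted p = 1.89e-10) and 3.56 ± 0.14 over brain NSC (adjusted p = 4.91e-11). Cldn7, another claudin of epithelial sheets, which is also found along their lateral membranes, read 7.40, 6.89 and 7.15 on labelled iPS-derived NSC arrays, 4.73, 4.38 and 4.95 on labelled iPS arrays, and 4.93, 4.88, 4.91 and 4.68 on brain NSC arrays. Its difference was 2.46 ± 0.15 over labelled iPS (adjusted p = 6.91e-09) and 2.30 ± 0.14 over brain NSC (adjusted p = 6.09e-09). Ocln, the second kind of membrane strand protein beside the claudins, was the dimmest of the 4. It read 5.80, 5.65 and 5.50 on labelled iPS-derived NSC arrays, 4.39, 4.58 and 4.25 on labelled iPS arrays, and 4.62, 4.31, 4.48 and 4.43 on brain NSC arrays, a difference of 1.25 ± 0.12 over labelled iPS (adjusted p = 5.54e-07) and 1.19 ± 0.11 over brain NSC (adjusted p = 3.99e-07). Its other, dimmer probe set gave a difference of 2.90, so the size for Ocln depends on the probe set.

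The other 17 claudins were not called in any comparison, and 12 of them lay below the array median in every group. Their differences of labelled iPS-derived NSC over labelled iPS ran between -0.08 and 0.65. Cldn3, which like Cldn4 binds the Clostridium toxin, is the direct neighbour of Cldn4 among the protein-coding genes of chromosome 5 in RefSeq's order, and it averaged 7.02, 6.70 and 6.30 on labelled iPS-derived NSC, labelled iPS and brain NSC arrays. Its difference over labelled iPS was 0.32, against 3.40 for Cldn4. Cldn9 is the direct neighbour of Cldn6 on chromosome 17, and its difference was 0.29 on the brightest probe set, while a dimmer probe set passed both limits at 1.27. Cldn5, the claudin of brain endothelium, averaged 5.86, 5.29 and 5.39 in the same 3 groups, and Cldn11, the claudin of myelin, was dim in all 3 (3.66, 3.51 and 3.59).

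Cldn12 and Tjp1 were bright on all arrays and were not called, with the labelled iPS-derived NSC arrays below brain NSC by less than 2-fold. Cldn12, a claudin without the usual PDZ-binding end, read 9.28, 9.35 and 9.33 on labelled iPS-derived NSC arrays, 9.53, 9.29 and 9.38 on labelled iPS arrays, and 10.33, 10.29, 10.32 and 9.91 on brain NSC arrays. Both of the first groups lay below all 4 brain NSC arrays. The difference from brain NSC was -0.89 ± 0.11 for labelled iPS-derived NSC (adjusted p = 8.68e-06) and -0.81 ± 0.11 for labelled iPS (adjusted p = 0.000308). Tjp1, the scaffold protein ZO-1, which neural stem cells also use at their apical junctions, read 10.85 to 11.09 on labelled iPS-derived NSC arrays, 11.28 to 11.44 on labelled iPS arrays and 11.48 to 11.66 on brain NSC arrays, with no overlap between the groups. Its difference was -0.40 ± 0.10 for labelled iPS-derived NSC over labelled iPS (adjusted p = 0.00289).

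Of the 44 keratins, 3 were called in any comparison. Krt8 and Krt18, the type II and type I chains that pair in simple epithelia, rose on the arrays labelled iPS-derived NSC, and Krt10, the type I chain of differentiating epidermis, fell against labelled iPS. Krt18 read 8.59, 8.19 and 8.15 on labelled iPS-derived NSC arrays, 3.99, 3.90 and 3.86 on labelled iPS arrays, and 3.96, 3.68, 3.81 and 3.81 on brain NSC arrays. The signal was low on all 7 arrays of the other groups, and the difference over labelled iPS was 4.39 ± 0.12 (adjusted p = 1.48e-12). Krt8 read 9.57, 9.09 and 9.33 on labelled iPS-derived NSC arrays, 5.71, 5.67 and 5.67 on labelled iPS arrays, and 5.67, 5.69, 5.88 and 5.76 on brain NSC arrays. Its difference was 3.65 ± 0.12 over labelled iPS (adjusted p = 6.83e-12), and its 3 probe sets, all of a kind whose probes can match more than 1 transcript, ran between 3.47 and 4.43. Over brain NSC the differences were 4.49 ± 0.11 for Krt18 (adjusted p = 5.18e-13) and 3.58 ± 0.11 for Krt8 (adjusted p = 3.47e-12).

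Krt10 read 7.37, 7.27 and 7.50 on labelled iPS-derived NSC arrays, 8.61, 8.51 and 8.56 on labelled iPS arrays, and 7.97, 8.09, 7.89 and 7.75 on brain NSC arrays. The 3 groups did not overlap, with labelled iPS highest. The difference of labelled iPS-derived NSC over labelled iPS was -1.18 ± 0.11 (adjusted p = 3.25e-07), and that over brain NSC was -0.54 ± 0.10 (adjusted p = 0.000284), under 2-fold. Labelled iPS differed from brain NSC by 0.63 ± 0.10 (adjusted p = 0.000720). Krt10 has only 1 probe set, of the same kind, and the call was lost with quantile scaling (-0.93).

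Of the keratins in this set, 22 lie on chromosome 15, mostly type II, and 22 on chromosome 11, type I. In RefSeq's gene order, Krt8 and Krt18 are the last 2 of those on chromosome 15. They are direct neighbours, with no other protein-coding gene between them. The other 20 keratins of the set on that chromosome were not called. Their differences of labelled iPS-derived NSC over labelled iPS ran between -0.16 and 0.48. On chromosome 11, 21 of 22 were not called (-0.05 to 0.55) and the remaining gene was Krt10. The keratins not called include the basal epidermal pair, Krt5 of chromosome 15 and Krt14 of chromosome 11. Krt5 averaged 5.68, 5.42 and 5.40 in labelled iPS-derived NSC, labelled iPS and brain NSC, and Krt14 averaged 4.78, 4.83 and 4.60. Krt7 and Krt19, which accompany Krt8 and Krt18 in many simple epithelia, had differences of 0.48 and 0.47 over labelled iPS. Of the 41 keratins not called, 29 lay below the array median in every group.

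**Figure D3:**
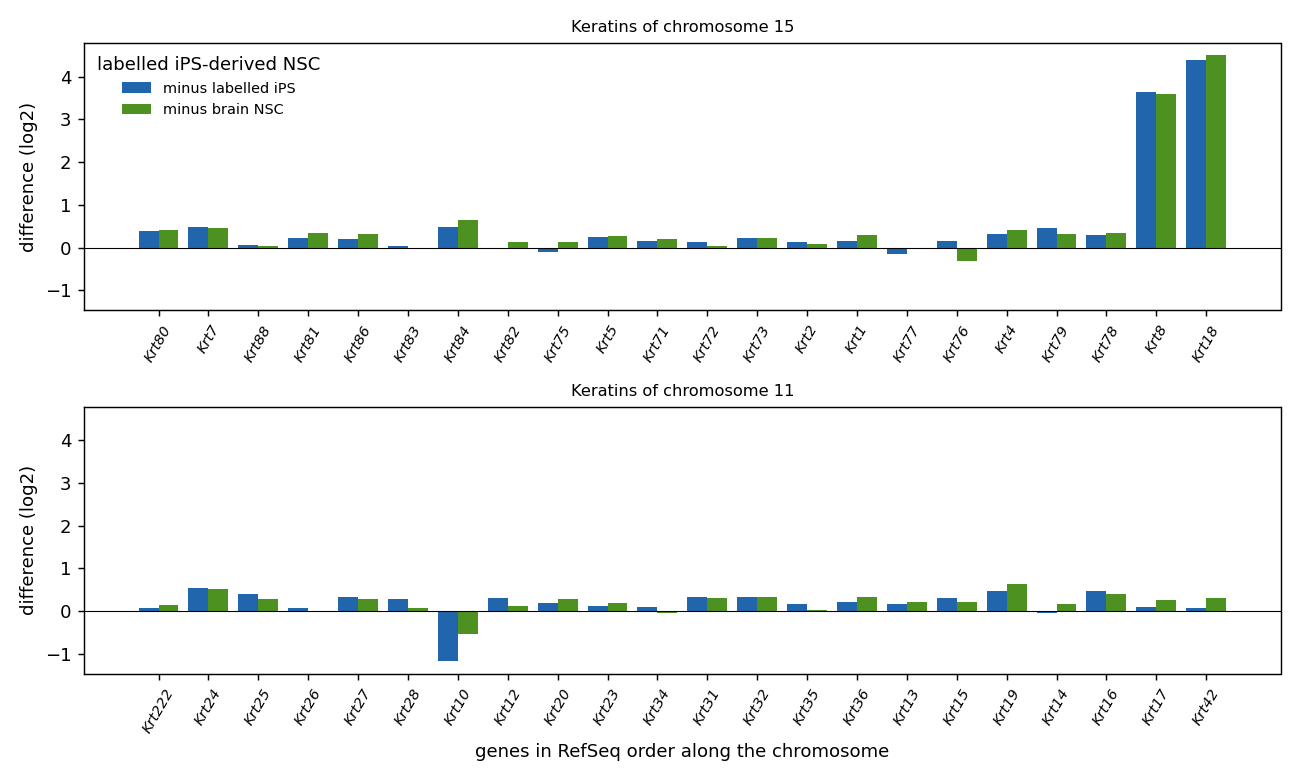
Log2 difference of labelled iPS-derived NSC over labelled iPS (blue bars) and over brain NSC (green bars) for the keratins in this set. Those of chromosome 15 (top) and 11 (bottom) stand in RefSeq's gene order. Krt8 (3.65 over labelled iPS) and Krt18 (4.39) stand side by side at the end of the chromosome 15 row, Krt10 lies at -1.18 on chromosome 11, and the rest lie between -0.16 and 0.55 over labelled iPS.

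The promoters of 4 of these genes are printed because the genes rose together and their windows hold the letters of the E-box bound by repressors such as Zeb1 and Snai1. Each window runs from 250 bases before to 50 bases after the gene's start in RefSeq (build GRCm38.p6), 5′ to 3′ on the gene's strand. Capitals mark CACCTG or its reverse complement CAGGTG. Cldn4 lies at chr5:134946885-134947184 on the minus strand, Cldn6 at chr17:23679115-23679414 on the plus strand, Krt8 at chr15:102004293-102004592 on the minus strand and Krt18 at chr15:102027966-102028265 on the plus strand.
Cldn4: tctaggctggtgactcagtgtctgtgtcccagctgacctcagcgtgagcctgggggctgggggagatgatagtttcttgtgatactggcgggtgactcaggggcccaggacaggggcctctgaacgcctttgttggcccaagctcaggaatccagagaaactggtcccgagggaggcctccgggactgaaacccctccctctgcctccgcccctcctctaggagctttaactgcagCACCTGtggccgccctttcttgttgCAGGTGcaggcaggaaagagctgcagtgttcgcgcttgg
Cldn6: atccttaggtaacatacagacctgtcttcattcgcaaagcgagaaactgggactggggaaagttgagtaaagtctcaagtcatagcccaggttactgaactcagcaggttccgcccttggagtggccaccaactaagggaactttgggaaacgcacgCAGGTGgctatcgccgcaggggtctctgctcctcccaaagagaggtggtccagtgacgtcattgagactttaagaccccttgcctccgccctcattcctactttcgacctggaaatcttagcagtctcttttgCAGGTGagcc
Krt8: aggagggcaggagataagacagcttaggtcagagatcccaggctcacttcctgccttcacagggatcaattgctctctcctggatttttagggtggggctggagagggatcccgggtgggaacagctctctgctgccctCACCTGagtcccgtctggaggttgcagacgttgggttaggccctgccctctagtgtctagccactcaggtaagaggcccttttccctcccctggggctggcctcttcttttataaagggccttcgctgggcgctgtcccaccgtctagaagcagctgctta
Krt18: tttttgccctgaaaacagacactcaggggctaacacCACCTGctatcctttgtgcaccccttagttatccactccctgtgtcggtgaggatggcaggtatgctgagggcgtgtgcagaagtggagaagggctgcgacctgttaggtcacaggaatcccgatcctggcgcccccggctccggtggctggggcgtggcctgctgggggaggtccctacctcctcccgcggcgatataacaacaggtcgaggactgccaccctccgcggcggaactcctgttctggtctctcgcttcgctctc
Cldn4 and Cldn6 hold 2 matches each, and Krt8 and Krt18 hold 1 each.

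RefSeq's table had a promoter window for 63 of the 91 genes. CACCTG, on either strand, was in the window of 26 of them (41.3%), beside 22.6% of all 27025 genes with a window and 23.0% of those also on the array. Of the 12 genes that rose, 8 had a window and 7 of these held it, namely Cldn4, Cldn6, Cldn7, Dsp, Krt8, Krt18 and Ocln, and Gjb5 did not. Krt10, the gene that fell against labelled iPS, held CACCTG in its window too, and so did the uncalled Pkp4. The uncalled Cldn12, Gja1 and Tjp1 did not hold it. The other 7 motifs searched on both strands were GGGCGG (5 of the 8 genes, beside 57.5% of the genes on the array and 38.2% of all genes), TATAAA (2 of 8, beside 11.5% and 15.7%), GGGTGGGG (3 of 8, beside 14.4% and 11.3%), CCACACCC (0 of 8, beside 4.57% and 4.09%), ATGCAAAT (0 of 8, beside 1.68% and 1.97%), AACCNGTT (0 of 8, beside 2.30% and 2.35%) and AACCGGTT (0 of 8, beside 0.244% and 0.174%). Every match of AACCGGTT is also one of AACCNGTT. The motifs were chosen with the results known and no test was made. A match is a run of letters and not a measured binding site.

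The 2 highest differences among the 91 were those of the desmosome genes Dsg2 and Pkp2. Dsg2, the desmoglein of simple epithelia and pluripotent cells, read 10.23, 10.32 and 10.40 on labelled iPS-derived NSC arrays, 4.12, 3.83 and 3.97 on labelled iPS arrays, and 4.26, 4.03, 3.98 and 4.21 on brain NSC arrays. It was bright on the first 3 arrays and low on the other 7, with a difference of 6.35 ± 0.11 over labelled iPS (adjusted p = 1.82e-14) and 6.20 ± 0.10 over brain NSC (adjusted p = 1.04e-14). Its 6 probe sets were all called higher, with differences over labelled iPS between 1.75 and 6.35. Among the 6 desmoglein and desmocollin genes in this set, all on chromosome 18, Dsg2 was the one called. Its desmocollin partner Dsc2 had a difference of 0.61 over labelled iPS, with means of 4.79, 4.18 and 4.18 in labelled iPS-derived NSC, labelled iPS and brain NSC. Dsc1, a desmocollin of upper epidermis, averaged 3.46, 3.90 and 3.97 in the same groups, below the lower quartile of the arrays. Its difference was -0.43, and its other probe set gave -0.06.

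Pkp2, a plakophilin that links desmoplakin to the membrane cadherins, changed in all 3 comparisons. It read 10.68, 10.80 and 10.56 on labelled iPS-derived NSC arrays, 5.18, 4.23 and 4.53 on labelled iPS arrays, and 6.62, 6.86, 6.82 and 5.95 on brain NSC arrays. The 3 groups did not overlap. The difference was 6.03 ± 0.24 for labelled iPS-derived NSC over labelled iPS (adjusted p = 6.87e-11) and 4.12 ± 0.23 over brain NSC (adjusted p = 1.67e-09). For labelled iPS over brain NSC it was -1.92 ± 0.23 (adjusted p = 0.000101). This last value depends on the probe set: the 4 probe sets of Pkp2 gave -1.92, -0.59, -0.15 and -0.07, so the fall was called on the brightest alone. For labelled iPS-derived NSC over labelled iPS the same 4 gave 6.03, 4.65, 0.34 and 1.90.

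Dsp, the plakin that ties the desmosome to keratin filaments, read 7.39, 7.07 and 7.44 on labelled iPS-derived NSC arrays, 3.46, 3.45 and 3.42 on labelled iPS arrays, and 3.18, 3.46, 3.50 and 3.28 on brain NSC arrays. It was near the bottom of the intensity range on the last 7 arrays, and its difference was 3.86 ± 0.12 over labelled iPS (adjusted p = 3.74e-12) and 3.95 ± 0.11 over brain NSC (adjusted p = 1.30e-12). Pkp3, the plakophilin found through all layers of stratified epithelia, read 7.69, 7.48 and 7.78, against 5.86, 6.09 and 6.03 on labelled iPS arrays and 6.32, 6.12, 6.14 and 6.09 on brain NSC arrays. Its difference over labelled iPS was 1.66 ± 0.11 (adjusted p = 1.15e-08) and over brain NSC 1.48 ± 0.10 (adjusted p = 1.62e-08), and its other probe set gave 0.51 over labelled iPS. Pkp4, a related armadillo protein that also sits at adherens junctions, was bright throughout (10.20 to 10.30 on labelled iPS-derived NSC arrays, 10.53 to 10.65 on labelled iPS arrays and 10.60 to 10.79 on brain NSC arrays). Its difference was -0.34 ± 0.09 over labelled iPS (adjusted p = 0.00461), under 2-fold. Pkp1, the plakophilin of epidermis, averaged 7.42, 6.88 and 7.08 in labelled iPS-derived NSC, labelled iPS and brain NSC and was not called.

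**Figure D4:**
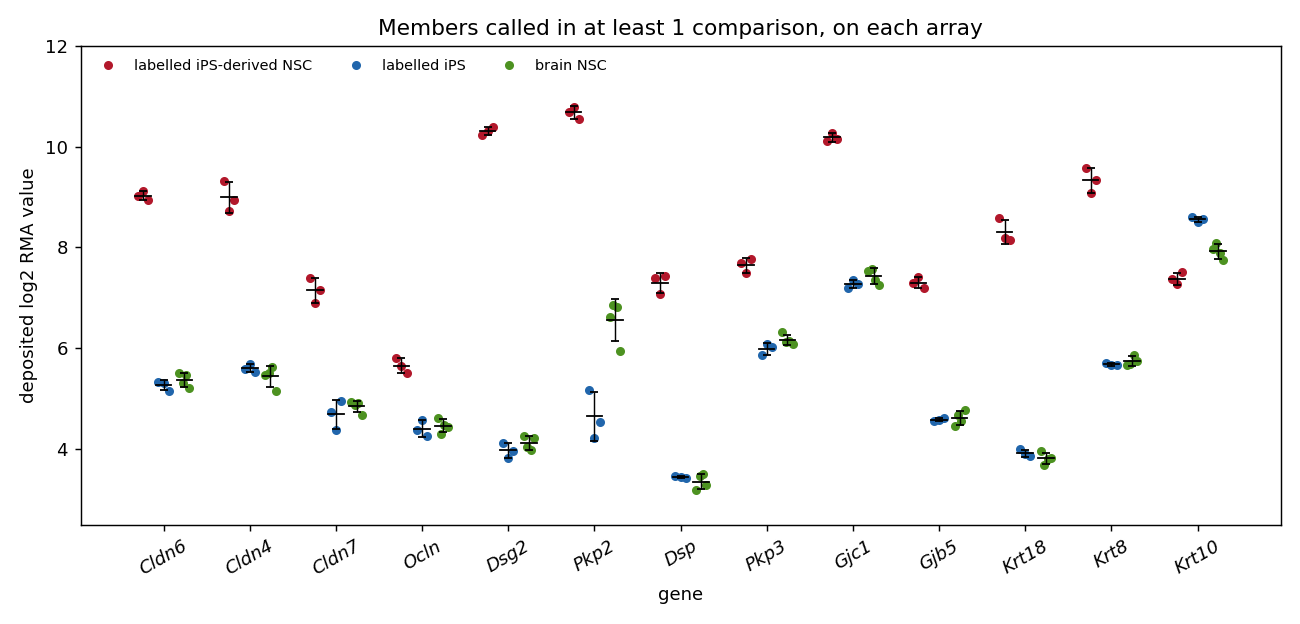
Log2 intensity on each array (points), with group means and SD (horizontal and vertical lines), for the 13 genes called in any comparison, in the order labelled iPS-derived NSC, labelled iPS, brain NSC. For the 12 genes that rose, the 3 labelled iPS-derived NSC arrays lie above all 7 others, and for Krt10 they lie below.

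Of the connexins, Gjc1 and Gjb5 rose on the arrays labelled iPS-derived NSC. Gjc1, or Cx45, the connexin of early embryonic and heart conduction cells, read 10.11, 10.28 and 10.16 on labelled iPS-derived NSC arrays, 7.19, 7.36 and 7.28 on labelled iPS arrays, and 7.54, 7.58, 7.36 and 7.26 on brain NSC arrays. It was above the array median in all groups, and the difference was 2.91 ± 0.11, or 7.50-fold, over labelled iPS (adjusted p = 2.58e-11) and 2.75 ± 0.10 over brain NSC (adjusted p = 1.96e-11). Gjb5, a connexin of skin and placenta, read 7.30, 7.42 and 7.19 on labelled iPS-derived NSC arrays, 4.55, 4.58 and 4.62 on labelled iPS arrays, and 4.45, 4.68, 4.55 and 4.77 on brain NSC arrays. Its difference was 2.72 ± 0.10 over labelled iPS (adjusted p = 3.97e-11) and 2.69 ± 0.10 over brain NSC (adjusted p = 1.87e-11).

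Gja1, or Cx43, the main connexin of both neural stem cells and pluripotent cells, was the brightest of the connexins. It read 12.44, 12.60 and 12.43 on labelled iPS-derived NSC arrays, 11.66, 11.52 and 11.57 on labelled iPS arrays, and 12.66, 12.38, 12.55 and 12.00 on brain NSC arrays. The labelled iPS arrays lay below both other groups, which overlapped. The difference of labelled iPS-derived NSC over labelled iPS was 0.91 ± 0.14 (adjusted p = 8.34e-05) and that of labelled iPS over brain NSC was -0.81 ± 0.13 (adjusted p = 0.00105), both under 2-fold. Over brain NSC, labelled iPS-derived NSC differed by 0.10 ± 0.13 (adjusted p = 0.550). The 6 probe sets of Gja1 all had the labelled iPS arrays lowest, with differences of labelled iPS over brain NSC between -2.35 and -0.26. 1 of the 6, which averaged 9.03 on labelled iPS-derived NSC, 6.73 on labelled iPS and 9.08 on brain NSC arrays, passed the 2-fold limit in both of these comparisons. The remaining 10 connexins lay below the array median in every group. Gjb2 and Gjb6, a pair of connexins made by astrocytes and direct neighbours on chromosome 14, averaged 4.90, 4.94 and 4.91 (Gjb2) and 3.80, 3.64 and 3.67 (Gjb6) in labelled iPS-derived NSC, labelled iPS and brain NSC.

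**Figure D5:**
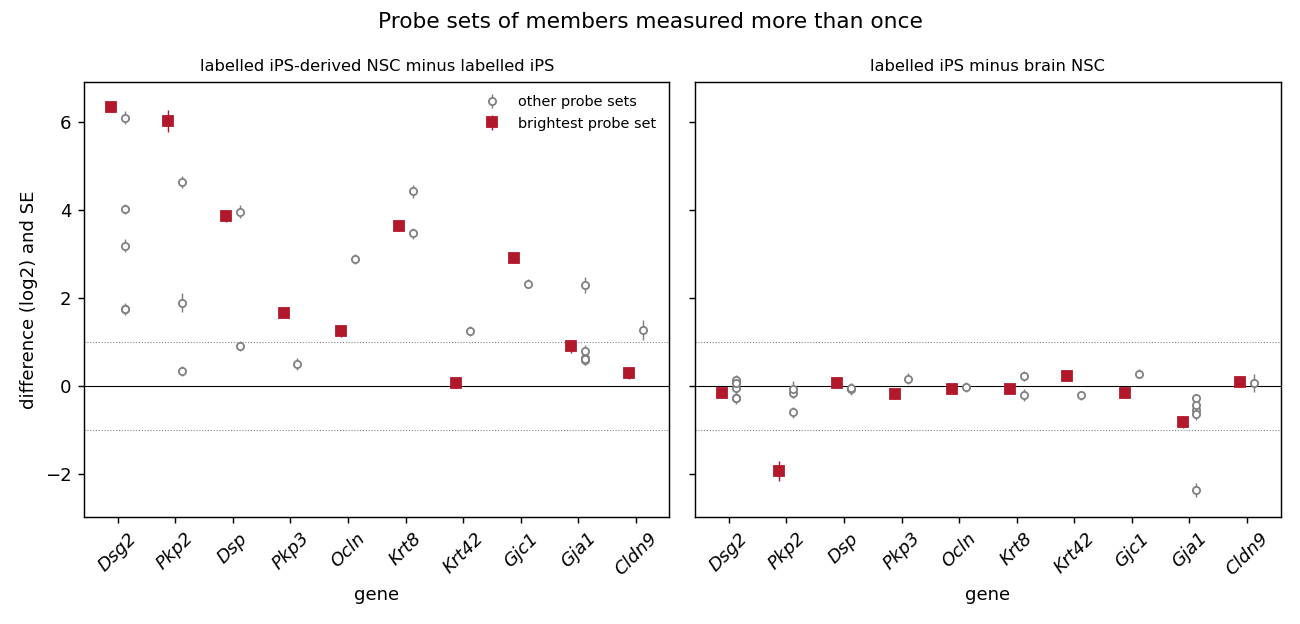
Log2 difference, with its SE, on each probe set of 10 genes with several, for labelled iPS-derived NSC over labelled iPS (left) and labelled iPS over brain NSC (right), with squares for the brightest probe set and circles for the others. On the left the probe sets of Dsg2 spread between 1.75 and 6.35 and those of Pkp2 between 0.34 and 6.03, and on the right the brightest of Pkp2 (-1.92) stands apart from its other 3.

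Genes with several probe sets show how far the size of a difference rests on the probe set. Of the 29 such genes, 23 had the same call on all their probe sets for labelled iPS-derived NSC over labelled iPS. That count includes genes, many of them dim, with no probe set called. Of the 7 called genes with several probe sets, only Dsg2, Gjc1, Krt8 and Ocln were called on all of them. Cldn9, Gja1 and Krt42 were not called on their brightest probe set but were on a dimmer one. Dsp, Pkp2 and Pkp3 were called on their brightest probe set and not on at least 1 dimmer one, with differences there of 0.92, 0.34 and 0.51. Krt42, a type I keratin, averaged 8.70, 8.62 and 8.39 in labelled iPS-derived NSC, labelled iPS and brain NSC on its brightest probe set. That probe set is of the kind whose probes can match more than 1 transcript. The dimmer probe set of Krt42, not of that kind, averaged 5.90, 4.65 and 4.84 in the same groups. It gave 1.26 over labelled iPS and 1.06 over brain NSC, both called.

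Other genes of epithelial contacts and their regulators were taken as lists of 58 measured genes, chosen with earlier results of these data known. For labelled iPS-derived NSC over labelled iPS, 24 of the 58 rose and 10 fell, beside 10.8% and 14.4% of all genes. The same shares of all genes stand beside the counts of each list below for this comparison. The median difference of the 58 was 0.68, beside 0.12 for all genes. Of 21 partners at tight junctions and in cell polarity, 10 rose and 4 fell. Cdh1, or E-cadherin, the adhesion molecule of epithelial sheets, averaged 12.42 on labelled iPS-derived NSC arrays, 3.55 on labelled iPS arrays and 3.48 on brain NSC arrays, a difference of 8.88 ± 0.10 over labelled iPS, larger than that of any of the 91 genes. F11r, the junctional adhesion molecule A, rose by 5.03 ± 0.12, the polarity gene Llgl2 by 5.21 ± 0.17 and its complex partner Pard6b by 3.62 ± 0.11. Jam2, Jam3, Pard3 and Magi3 ran the other way, with differences of -1.11, -1.20, -1.13 and -1.31.

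Of 8 desmosome and adherens junction partners, Perp (3.44 ± 0.13), a membrane protein of desmosomes, and Ctnnd1 (1.22 ± 0.13), p120-catenin, rose and Cdh2 fell. Cdh2, or N-cadherin, averaged 5.13 on labelled iPS-derived NSC arrays, 11.02 on labelled iPS arrays and 10.76 on brain NSC arrays. Jup, the plakoglobin of both junction types, had a difference of 0.50 over labelled iPS and was not called, whereas over brain NSC it was 1.01 and called. Of 10 other intermediate filament genes, 2 rose and 2 fell. The neural progenitor filaments Vim and Nes fell by 2.65 ± 0.12 and 2.79 ± 0.17, while the neuronal filaments Nefl and Ina rose by 3.10 ± 0.19 and 2.97 ± 0.18. Nefm, also a neuronal filament, was not called, with a difference of 0.14 over labelled iPS. It averaged 4.08, 3.94 and 4.59 on labelled iPS-derived NSC, labelled iPS and brain NSC arrays. The 4 pannexin and connexin partner genes were not called over labelled iPS, with differences between -0.70 and 0.16.

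Of 10 regulators of epithelial genes, 9 rose over labelled iPS and 7 over brain NSC, beside 10.8% and 11.3% of all genes. They include the splicing factor Esrp1 (5.00 ± 0.14), Klf5 (4.71 ± 0.20) and the grainyhead factors Grhl2 (4.04 ± 0.11) and Grhl3 (2.86 ± 0.12). Of 5 repressors of epithelial genes, Zeb1, Zeb2 and Twist1 fell by 5.24 ± 0.12, 4.40 ± 0.15 and 3.54 ± 0.18, and Snai1 rose by 1.54 ± 0.13. Zeb1 averaged 7.35 on labelled iPS-derived NSC arrays, 12.59 on labelled iPS arrays and 12.33 on brain NSC arrays. Between labelled iPS and brain NSC, 1 of the 58 was called (Twist1, higher by 1.45), and the median was 0.02. Of all genes, 0.951% rose and 0.89% fell there.

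Lists of markers of other cell types were read on the same arrays. Their calls are for labelled iPS-derived NSC over labelled iPS, where 10.8% of all genes rose and 14.4% fell. The 7 feeder fibroblast markers had array means of 6.75, 6.39 and 5.72 on labelled iPS-derived NSC replicates 1, 2 and 3, against 4.72 to 4.84 on labelled iPS arrays and 4.68 to 4.75 on brain NSC arrays, and 4 of the 7 rose over labelled iPS. Of the members that rose, Krt8, Krt18, Cldn4, Cldn7 and Ocln were highest on replicate 1. Cldn6, Pkp2, Gjc1 and Gjb5 were highest on replicate 2, and Dsg2, Dsp and Pkp3 on replicate 3. Krt18 and Ocln fell from replicate 1 to 3 as these markers did, whereas Krt8, Cldn4 and Cldn7 were lowest on replicate 2. The 6 trophectoderm markers averaged 5.97 to 6.09 on labelled iPS-derived NSC arrays, 4.71 to 4.77 on labelled iPS arrays and 4.68 to 4.82 on brain NSC arrays, with 2 of 6 higher (Eomes and Tfap2c), and the defining gene Cdx2 read 6.00 to 6.18, 5.27 to 5.66 and 5.44 to 6.07. The 6 epidermal markers averaged 6.24 to 6.41, 5.02 to 5.19 and 5.06 to 5.32 in the same order of groups, with 2 of 6 higher (Sfn and Perp). Primitive endoderm markers rose in 3 of 4 and averaged 6.86 to 7.00, 4.88 to 5.03 and 4.82 to 5.06. The endothelial list had 1 of 5 higher (Pecam1), at 5.92 to 6.12, 4.82 to 5.04 and 4.84 to 5.05. Pluripotency markers rose in 6 of 6 and averaged 12.00 to 12.11, 4.58 to 4.63 and 4.62 to 4.76, and neural stem cell markers fell in 5 of 6 and averaged 7.19 to 7.30, 12.24 to 12.30 and 12.14 to 12.37. Astrocyte markers fell in 2 of 5 (5.21 to 5.36, 6.07 to 6.20 and 6.08 to 6.31), and the 5 oligodendrocyte markers were not called (6.48 to 6.58, 6.39 to 6.50 and 6.25 to 6.50). The part of these cell types in the differences of the 91 genes was not tested.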

How the data were processed

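RNA of 10 samples was labelled by the one-cycle Affymetrix protocol, per the labels' protocols. The deposited table holds log2 intensities after RMA by the authors, per the submitters' processing notes, with no version or genome build given in the sources used here. Scanner files were not used here, so background correction and detection could not be varied. The number of arrays limits the precision.

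Of 45101 probe sets, 64 controls, 932 with several symbols and 9160 with none were left out. The remaining 34945 (34741 matched to RefSeq by Entrez ID, 0 symbols changed) gave 18193 genes, each read from its brightest probe set by mean over all arrays. limma 3.58.1 (R 4.3.3; lmFit and eBayes) fitted 3 groups over 10 arrays with 7 residual degrees of freedom. Genes were called at a Benjamini-Hochberg adjusted p below 0.05, over all genes, and at least 2-fold. No low-value filter was applied, so all 91 members were tested, 65 of them with a mean below 5.68. The fit was tested on simulated data.

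The values of every called member and of members bright in all groups are given, and others as ranges, counts or by their role. The members, gene lists and naming rule were chosen with earlier results of these data known. Alternatives were the mean of all probe sets, leaving out dim genes, leaving out suffixed probe sets, quantile scaling and fitting only the groups compared. Suffixed probe sets are those with suffix s, x or a, whose probes can match several transcripts, of the same gene or of others. Further alternatives were a robust fit with an intensity trend, a test against 1.5-fold (treat), a replicate block and leaving out each array. Replicate numbers did not pair the samples: deviations of same-numbered arrays correlated between -0.21 and 0.13.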

Additional observations from a re-analysis of the deposited data

Results flagged for a closer look

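Of 17 genes examined in the 4 brain NSC arrays, 1 had an array far from the others: Cldn12 read 9.91 on replicate 4, against 10.29 to 10.33 on the other brain NSC arrays. Its gap was 0.926 of the group's range, above Dixon's critical value for 4 samples, which chance passes in about 1 in 20 groups. Groups of 3 arrays were not examined. The same array was lowest of its group for Pkp2 (5.95), Gja1 (12.00), Krt10, Cldn4, Cldn6, Cldn7, Gjc1 and Pkp3. It was not lowest for Krt8, Krt18, Dsg2, Dsp and Ocln, and it was highest for Gjb5.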

How the results depend on the processing

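For labelled iPS over brain NSC, the 1 member lower became 0 with the mean of all probe sets and 0 without suffixed probe sets. Pkp2 was -0.68 and -0.59 in these 2 settings. The 1 partner gene called in that comparison became 2 without suffixed probe sets. Leaving out dim genes kept 26 of the 91 members in the fit and gave 7 members higher instead of 12 in both comparisons of labelled iPS-derived NSC, since the filter itself removed Cldn7, Dsp, Gjb5, Krt18 and Ocln. The 1 member lower than labelled iPS, Krt10, became 0 with quantile scaling (-0.93) and 0 without suffixed probe sets, where it has no probe set left. Leaving out those probe sets kept 12 members higher in both comparisons of labelled iPS-derived NSC, with 11 shared: Krt8 has no probe set left and Krt42 was gained. Against brain NSC, 0 members lower became 1 with the test against 1.5-fold (Cldn12, adjusted p = 0.0303). No paired analysis was warranted because the numbers did not pair the samples; the fit with the replicate block gave the same 0, 12 and 12 members higher, and 1, 1 and 0 lower, and 1, 34 and 34 partner genes called. Over all genes, the 335 called for labelled iPS over brain NSC became 223 with the mean of all probe sets, 183 with the test against 1.5-fold, 537 with the replicate block and 296 to 537 when 1 array was left out, the highest without brain NSC replicate 4. Leaving out 1 array gave 12 to 12 members higher in both other comparisons, 4586 to 4644 and 4575 to 4702 genes called, and 32 to 34 and 31 to 34 partner genes. Of 36 named differences under 18 settings, 17 had no value because the setting left the gene out. Cldn7, Dsp, Gjb5, Krt18 and Ocln were left out as dim, and Krt8, Krt10 and Tjp1 as having only suffixed probe sets. Of the other 631, 627 kept direction and side of the threshold, 3 lost the call, 1 gained it and 0 reversed. Quantile scaling moved the median of all genes by at most 0.05.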
